A study of Mus musculus with 15 samples.

Results

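Transcripts of 7 genes that encode the secreted fat- and starch-digesting proteins of the exocrine pancreas were followed across embryonic mouse pancreata. The genes were Cel, Pnlip, Pnliprp1, Pnliprp2, Clps, Amy1 and Amy2b, selected by symbol and not by a cut on their values, though with earlier results of these data known. They are 7 of the 25292 genes in the count table. Of the 7 genes, 6 carried enough reads to be tested among 16245 tested genes, and Pnlip did not. The data comprised 15 libraries of poly(A) RNA in 5 groups of 3. All animals had the C57/Bl6J strain label. The wt group and the group labelled S1pr2 null held pancreata taken at 14.5 dpc (days post coitum) with no culture. By the study's methods the null allele, S1pr2 tm1Rlp, has exon 1 disrupted by a Neo cassette, and each library pooled up to 3 pancreata. The other 3 groups were wild-type explants of the same stage, kept for 2 days in serum-free air–liquid interface (ALI) culture, on a filter at the surface of the medium. They were left in normal medium (control), given 15 μM JTE013, an antagonist of the sphingosine-1-phosphate receptor S1pr2 (JTE), or given 15 μM JTE013 with 50 ng/ml connective tissue growth factor (JTE + CTGF). The methods describe dorsal buds as the starting tissue of explants.

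Acinar cells of the pancreas store digestive enzymes in zymogen granules and release them into the duct system. Fat is split in the gut by lipases, of which the classical triglyceride lipase needs colipase as a partner to work on bile-coated droplets, while starch is cut by amylase. In the embryo these transcripts appear as acinar cells differentiate, and some rodent lipase genes are known to be used before birth while Pnlip is known to appear mainly later. The mouse amylase genes lie in one cluster, with Amy1 known from salivary gland and liver and the Amy2 genes from pancreas.

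The 3 lipase genes of the Pnlip family are neighbours on chromosome 19. In mm10 the Pnlip gene, for the triglyceride lipase, spans chr19:58670365-58681786 on the plus strand. The Pnliprp1 gene, for a related protein with little known lipase activity, spans chr19:58728887-58744169, and Pnliprp2, for a related enzyme that also acts on plant galactolipids, spans chr19:58759723-58777533, on the same strand. The Cel gene, for the bile salt-stimulated carboxyl ester lipase, spans chr2:28555795-28563403 on the minus strand, and Clps, for colipase, spans chr17:28558210-28560766 on the minus strand. The amylase genes Amy1 (chr3:113555710-113606699) and Amy2b (chr3:113147656-113156727) are both on the minus strand of chromosome 3. None of the 50-base words of the lipase and colipase transcripts occurred at another gene, while 33.3% of those of Amy1 and 40.2% of those of Amy2b did. Only uniquely aligned reads were counted, so Amy2b values hold the part of the transcript that can be told from its copies. The Amy2b gene is called an unprocessed pseudogene by GENCODE M21 and protein-coding by RefSeq. Words of Amy1 were shared most often with Rnpc3, and less often with Amy2b, Amy2a5 and Amy2a3. The exons of Amy1 share 1128 bases with Rnpc3 on the same strand.

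The 250 bases before the transcription start, from RefSeq (GRCm38.p6, the assembly of mm10), are printed for the 4 lipase genes and for the amylase gene with the most reads, so that the sequence upstream of genes with very different levels can be seen side by side. Of the 7 genes 6 had an entry, and Clps did not. Capitals mark motifs found on either strand: CACCTG, an E-box; TTTCCC, a site of the Rbpj type; AAGGTCA, a nuclear receptor site; AGATAA, known from sites of the GATA factors; and TATAAA, the TATA box. The last was added to the search after the sequences had been seen.
Cel (chr2:28563404-28563653, minus strand): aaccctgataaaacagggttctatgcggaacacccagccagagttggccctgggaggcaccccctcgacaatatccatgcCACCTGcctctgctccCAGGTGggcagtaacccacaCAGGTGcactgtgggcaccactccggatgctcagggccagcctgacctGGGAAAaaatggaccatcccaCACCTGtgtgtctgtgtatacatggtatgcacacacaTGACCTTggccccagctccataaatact
Pnlip (chr19:58670115-58670364, plus strand): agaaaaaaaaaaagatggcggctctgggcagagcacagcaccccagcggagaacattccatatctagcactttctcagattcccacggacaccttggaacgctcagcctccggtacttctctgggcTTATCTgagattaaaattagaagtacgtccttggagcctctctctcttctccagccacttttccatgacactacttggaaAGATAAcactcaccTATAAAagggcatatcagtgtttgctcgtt
Pnliprp1 (chr19:58728637-58728886, plus strand): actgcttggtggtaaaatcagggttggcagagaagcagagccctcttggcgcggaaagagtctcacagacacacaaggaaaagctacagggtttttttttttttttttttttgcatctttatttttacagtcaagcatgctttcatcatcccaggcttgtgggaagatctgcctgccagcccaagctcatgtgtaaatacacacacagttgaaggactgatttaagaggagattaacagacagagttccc
Pnliprp2 (chr19:58759473-58759722, plus strand): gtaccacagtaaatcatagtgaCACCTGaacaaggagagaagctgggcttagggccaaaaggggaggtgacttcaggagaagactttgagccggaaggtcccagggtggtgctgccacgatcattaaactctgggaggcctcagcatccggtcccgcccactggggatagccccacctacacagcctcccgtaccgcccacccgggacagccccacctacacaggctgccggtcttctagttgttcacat
Amy2b (chr3:113156728-113156977, minus strand): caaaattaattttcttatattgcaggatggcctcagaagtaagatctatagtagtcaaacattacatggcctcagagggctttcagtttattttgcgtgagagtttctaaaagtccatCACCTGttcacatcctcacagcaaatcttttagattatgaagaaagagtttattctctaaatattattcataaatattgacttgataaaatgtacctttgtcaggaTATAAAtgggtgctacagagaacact
The Cel window held CACCTG 4 times, at −170, −154, −134 and −65 from the start, with TTTCCC at −86 and AAGGTCA at −28, which overlaps a CANNTG at −32. Pnliprp2 held CACCTG at −228, and Amy2b held it at −132 with TATAAA at −26. The Pnlip window held AGATAA at −124 and −44 and TATAAA at −30, and no E-box of the form CANNTG. The Pnliprp1 window held none of the capitalised motifs, and CANNTG (left in lower case) at −63 and −45. The 2 windows of Amy1 held TATAAA in 1 and no E-box. CAGCTG, also searched, was in no window of these genes. Among 32851 windows of all genes, 17.2% held CACCTG, 13% CAGCTG, 66.2% CANNTG, which includes the other E-boxes, 21.9% TTTCCC, 4.08% AAGGTCA, 9.99% AGATAA and 12.4% TATAAA. These are matches of letters only.

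Library totals ranged from 11402804 to 13828737 reads, and the biological coefficient of variation was 7.3%. The S1pr2 gene was counted at 796 to 858 reads in wt and at 1368 to 1609 in the libraries labelled S1pr2 null, a count over the whole gene that does not test whether exon 1 is intact, so directions for that group rest on the label. Library JTE 3 stood apart from JTE 1 and JTE 2, with a chi-square per gene of 16.1 and 21.8 against 2.26 to 9.6 in all other pairs of replicates. Each of the 10 acinar transcription factors listed exceeded 3 reads in every group. In bulk tissue, fewer acinar cells and less RNA per acinar cell cannot be told apart.

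Levels of the 7 genes were compared per length, as RPKM (normalised reads per kilobase of exon, on the scaled library size). Pnliprp1 and Clps were by far the most abundant. In wt pancreata the mean RPKM was 1728 ± 523 (SD, n = 3) for Pnliprp1 and 1045 ± 232 (SD, n = 3) for Clps, and their libraries overlapped. Cel followed at 194 ± 49.2 RPKM (SD, n = 3). The amylase Amy2b stood at 22.9 ± 10.2 RPKM, Pnliprp2 at 5.31 ± 1.88, Amy1 at 0.909 ± 0.212 and Pnlip at 0.384 ± 0.147 (SD, n = 3 each), with no overlap between neighbours below Clps. Among all 25292 genes, Pnliprp1 ranked 7 and Clps 18 in wt by RPKM. In control explants they ranked 3 and 4, at 11004 ± 2622 RPKM and 9809 ± 1930 RPKM (SD, n = 3). The order was the same in wt, control, JTE and JTE + CTGF, and in JTE the libraries of Cel and Amy2b overlapped as well. In the libraries labelled S1pr2 null, Clps (296 ± 16.3 RPKM) stood above Pnliprp1 (265 ± 16.2 RPKM; SD, n = 3 each) without overlap, and the neighbours Amy2b and Pnliprp2 overlapped, as did Amy1 and Pnlip.

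The 7 genes together took 0.295% to 0.525% of the reads of wt libraries, 0.0732% to 0.0787% in the libraries labelled S1pr2 null, 1.88% to 2.81% in control, 1.21% to 2.68% in JTE and 2.51% to 3.05% in JTE + CTGF. Pnliprp1 alone made up 58.9% to 61.8% of these reads in the libraries labelled S1pr2 null and 67.3% to 74% in all others.

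Pnlip was counted at 2 to 16 reads per library. It had 6, 6 and 11 reads in wt, 4, 6 and 9 in S1pr2 null, 16, 10 and 5 in control, 4, 4 and 3 in JTE, and 6, 2 and 2 in JTE + CTGF. All 5 groups overlapped with their neighbours in the order of levels. JTE and control, which are further apart in that order, did not overlap, as for 28.3% of the tested genes in that direction. It fell under the filter on low counts. Without the filter its log2 fold change was −1.51 ± 0.53 (SE) for JTE against control, with an edgeR adjusted p of 0.0221, while DESeq2 gave −1.56 ± 0.71 and 0.067. For JTE + CTGF against control edgeR gave −1.41 ± 0.55 (adjusted p = 0.0332) and DESeq2 gave −1.49 ± 0.73 (adjusted p = 0.0801).

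**Figure D1:**
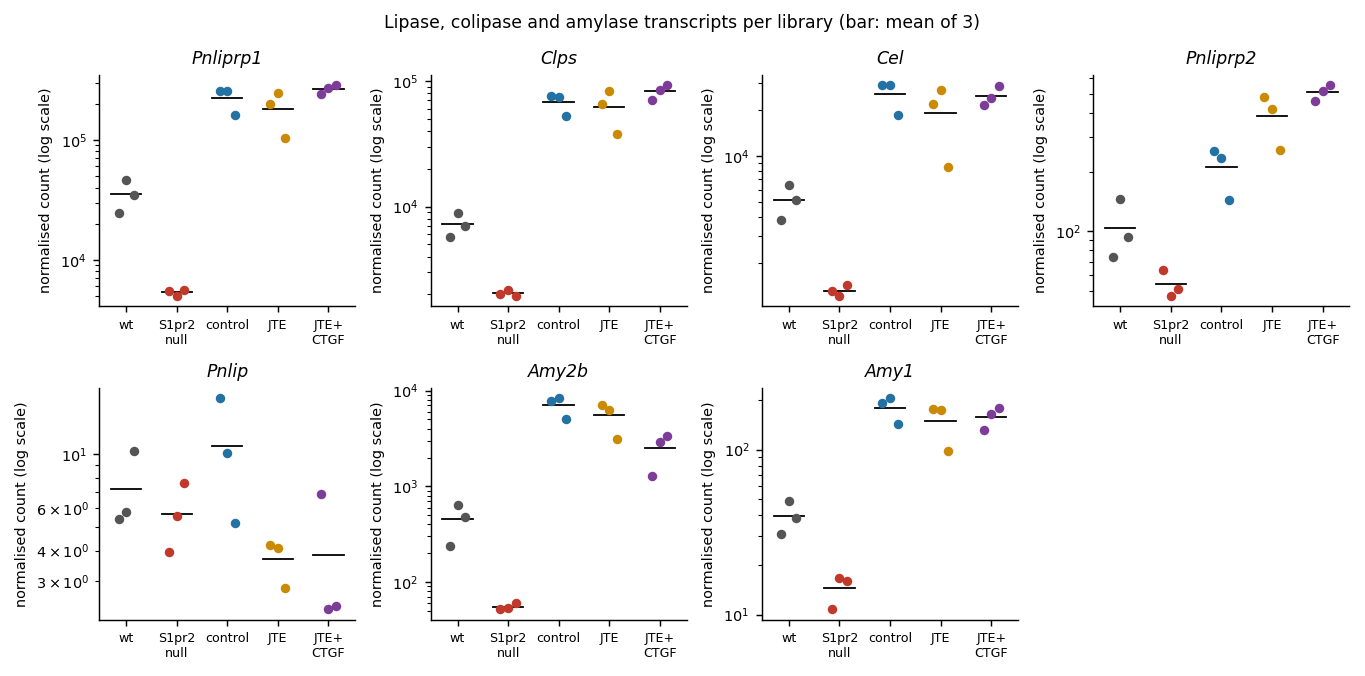
Normalised counts (log axis, each panel with its own range) of the 7 genes in each of the 15 libraries, by group, with bars at the means of 3. Apart from Pnlip, which has 2 to 16 reads per library, all genes were lowest in the libraries labelled S1pr2 null and higher in explants, and Pnliprp2 alone rose further with JTE.

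The first comparison asked how the enzyme transcripts of the embryo depend on S1pr2. Against wt, all 6 tested genes were lower in the libraries labelled S1pr2 null (0 higher), where 13.3% of all tested genes were lower and 12.6% higher. The normalised counts, that is counts scaled by the edgeR TMM library size, of the 6 genes did not overlap between the groups, as for 23.8% of all genes in that direction and 22.5% in the other. The median log2 fold change of the 6 genes was −1.89, against −0.01 over all genes.

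Pnliprp1 was counted at 24648, 45896 and 34740 normalised reads in wt and at 5460, 5013 and 5656 in the libraries labelled S1pr2 null. Each null library lay far below the lowest wt library. Its log2 fold change was −2.71 ± 0.26 (SE), 6.53-fold lower, with an edgeR adjusted p of 1.87e-06. Clps, the colipase gene, had 5705, 8890 and 7028 normalised reads in wt and 2009, 2163 and 1945 in null. The groups did not overlap, and Clps fell by 1.82 ± 0.22 on the log2 scale (3.53-fold; adjusted p = 1.88e-05). Cel had 3802, 6399 and 5147 normalised reads in wt and 1311, 1217 and 1423 in null. It fell by 1.96 ± 0.30 (3.88-fold; adjusted p = 0.000185), again without overlap.

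The amylase Amy2b gave the largest fold change of the 6 genes. It had 240, 640 and 481 normalised reads in wt and 52, 53.6 and 60.6 in null. All null libraries were below all wt libraries, and the wt libraries spread widely. The log2 fold change was −3.02 ± 0.51 (SE), 8.13-fold lower, with an adjusted p of 0.000369. Amy1 had 30.6, 48.8 and 38.5 normalised reads in wt and 10.8, 16.6 and 16 in null. It fell by 1.42 ± 0.33 on the log2 scale (adjusted p = 0.00427).

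Pnliprp2 changed least in this comparison. It had 73.8, 146 and 93.8 normalised reads in wt and 63.8, 47.1 and 51.3 in null. The gap between the highest null library and the lowest wt library was small. The log2 fold change was −0.95 ± 0.31 (adjusted p = 0.0329). This call was lost when wt 2 (log2 fold change −0.64), wt 3 (−1.02), S1pr2 null 2 (−0.86) or S1pr2 null 3 (−0.91) was left out, with adjusted p up to 0.203.

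Other secreted enzymes of the pancreas fell alongside. Of 17 listed proteases, nucleases and other enzymes, 15 were tested, of which 9 were lower and 0 higher, with a median log2 fold change of −1.89. The chymotrypsinogen gene Ctrb1 fell by 2.60 ± 0.22 and the carboxypeptidase gene Cpa1 by 1.32 ± 0.19 on the log2 scale (adjusted p = 3.77e-07 and 0.000108). Of 12 genes of the zymogen granule and its release, 5 were lower and 0 higher, among them the trypsin inhibitor gene Spink1 (−2.15 ± 0.20) and the cholecystokinin receptor gene Cckar (−1.11 ± 0.14; adjusted p = 1.6e-06 and 2.68e-05). Of 10 acinar transcription factors 9 were lower and 1 higher, with a median of −0.77. Bhlha15 (Mist1), a factor of secretory maturation, fell by 1.86 ± 0.21 and Rbpjl, a part of the PTF1 complex, by 1.48 ± 0.27 (adjusted p = 9.41e-06 and 0.00073), while Tcf3, a widely used E protein, rose by 0.23 ± 0.05 (adjusted p = 0.00277).

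Of 6 tested genes of the lipase family that act outside the gut, such as on lipoproteins, 2 were lower and 0 higher, with a median of −0.13. The lipoprotein lipase gene Lpl stood at 0.21 ± 0.15 (adjusted p = 0.331). Of 7 genes for intracellular fat breakdown 1 was higher and 2 lower (median 0.01), and of 8 genes for the breakdown of starch and glycogen outside amylase 1 was higher and 3 lower (median −0.09).

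Marker lists of other cell types also differed between these groups. The summed level of 6 general epithelial genes was 1935 to 2093 CPM (reads scaled to a common library size) in wt and 1413 to 1497 in null, that of 6 endocrine genes 2058 to 2304 and 996 to 1142, and that of 6 duct genes 1095 to 1225 and 1041 to 1075. The liver list went from 452 to 506 CPM in wt to 260 to 299 in null, the blood cell list from 674 to 849 to 959 to 1325 and the mesenchyme list from 10786 to 10973 to 8616 to 10184. By gene, 2 of 6 in the liver list were lower and 0 higher. Its most abundant gene, Ttr, fell by 0.77 ± 0.13 (adjusted p = 0.00035), while Afp, Alb and Fgb were not called. Of 6 blood cell genes 1 was higher, Hbb-y (1.44 ± 0.32), and 1 lower, Hbb-bt (−1.01 ± 0.14), with a median of −0.05. Of 6 mesenchyme genes 2 were higher and 2 lower (median 0.04). The endothelium list (419 to 432 and 436 to 440 CPM) and the stomach and intestine list (1.94 to 2.92 and 1.61 to 2.06 CPM) lay closer together. The part of the endocrine, liver, blood and mesenchyme lists in these results was not tested. When the epithelial reads served as library size, the log2 fold change was −2.24 for Pnliprp1, −1.36 for Clps, −1.49 for Cel, −2.56 for Amy2b and −0.97 for Amy1, all still called, and −0.49 for Pnliprp2 with an adjusted p of 0.0715. The median of all genes moved to 0.44 on that scale.

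The fall was not of one size within the group of enzymes. Clps stood at 209 ± 19.8 reads per 1000 Pnliprp1 reads in wt and at 381 ± 45.3 in null, and Cel at 147 ± 7.46 and 245 ± 5.97 (SD, n = 3). Pnliprp2 stood at 2.96 ± 0.238 reads per 1000 Pnliprp1 reads in wt and at 10 ± 1.42 in null (SD, n = 3). Libraries of the groups did not overlap in any of these 3 ratios. Amy2b, at 12.5 ± 2.39 and 10.3 ± 0.676 reads per 1000 Pnliprp1 reads, overlapped between the groups.

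**Figure D2:**
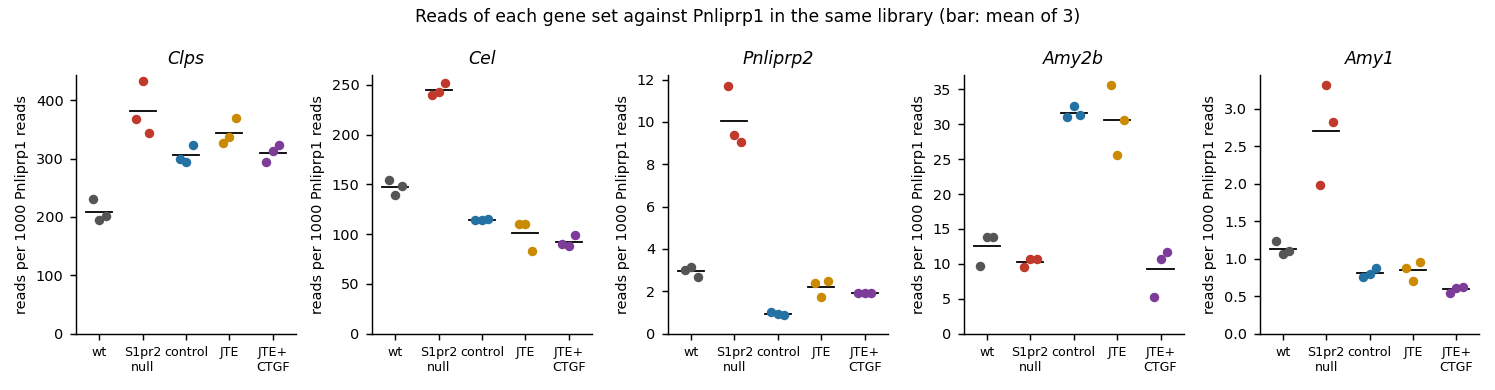
Reads of 5 genes per 1000 Pnliprp1 reads of the same library (linear axes from 0), by group, with bars at the means of 3. The ratios of Clps, Cel, Pnliprp2 and Amy1 were highest in the libraries labelled S1pr2 null, and that of Amy2b was highest in control and JTE.

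To test each gene against the other enzymes, the fit was repeated with the summed reads of the 17 other pancreatic enzymes as library size, an alternative chosen after the data had been seen. On this scale all genes shift by a median of 1.77. Pnliprp1 remained lower in null (log2 fold change −0.86 ± 0.24, adjusted p = 0.000514), as did Amy2b (−1.15 ± 0.28, adjusted p = 5.29e-05). Pnliprp2 was higher (0.90 ± 0.30, adjusted p = 0.00247). Clps (0.01 ± 0.25), Cel (−0.12 ± 0.26) and Amy1 (0.40 ± 0.37) did not pass the test, so relative to the other enzymes the direction was not shared by the 6 genes.

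The second comparison set control explants against fresh wt pancreata and asked how far the enzyme transcripts went in 2 days of culture. Culture, age and the use of dorsal buds cannot be told apart in it. All 6 tested genes were higher in control (0 lower), where 28.5% of all genes were higher and 29.3% lower. Of the 6 genes 5 did not overlap, as for 30.7% of all genes upwards and 33.1% downwards. Their median log2 fold change was 2.49, against −0.02 over all genes.

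Amy2b had 7861, 8302 and 5074 normalised reads in control. This lay far above the wt range of 240 to 640, with a log2 fold change of 3.97 ± 0.38 (SE; adjusted p = 1.45e-07). Clps had 75808, 74932 and 52314 normalised reads, against 5705 to 8890 in wt, and rose by 3.23 ± 0.23 on the log2 scale (adjusted p = 4.09e-09). Pnliprp1 had 253550, 254918 and 162015 normalised reads, and rose by 2.67 ± 0.26 (adjusted p = 1.93e-07). Control 3 was the lowest control library for each of these genes and did not reach down to wt. Cel rose by 2.31 ± 0.30, from a mean of 5116 ± 1299 to 25435 ± 5951 normalised reads (SD, n = 3; adjusted p = 4.63e-06), and Amy1 by 2.19 ± 0.23 (adjusted p = 5.02e-07).

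Pnliprp2 again differed least. It had 257, 236 and 144 normalised reads in control, and control 3 lay within the wt range, which reached 146. Its log2 fold change was 1.03 ± 0.26 (adjusted p = 0.00267). Per 1000 Pnliprp1 reads it went from 2.96 ± 0.238 in wt to 0.942 ± 0.0646 in control (SD, n = 3), without overlap. Relative to the reads of the other enzymes, where all genes shift by a median of −2.96, Pnliprp2 was lower in control (−1.87 ± 0.29, adjusted p = 8.74e-11), Cel and Amy1 were lower too (−0.60 ± 0.26 and −0.71 ± 0.32, adjusted p = 0.0196 and 0.0248), and Amy2b was higher (1.10 ± 0.26, adjusted p = 2.91e-05). Pnliprp1 (−0.23 ± 0.24) and Clps (0.32 ± 0.25) did not pass the test.

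The other enzymes rose in 14 of 15 tested genes (0 lower, median 3.62), led in level by Ctrb1 (log2 fold change 3.43 ± 0.22) and Cpa1 (1.80 ± 0.19; adjusted p = 1.44e-09 and 5.74e-07). All 12 zymogen granule genes were higher, with a median of 4.53. Of the acinar transcription factors 2 of 10 were higher and 3 lower, with a median of 0.16. Bhlha15 stood at 0.23 ± 0.19 (adjusted p = 0.327) and Rbpjl at −0.08 ± 0.26 (adjusted p = 0.811), while Xbp1, a factor of the secretory stress response, rose by 0.86 ± 0.10 (adjusted p = 1.13e-06). Of the other lipases 4 of 6 were higher and 0 lower, with Lpl at 2.16 ± 0.14 (adjusted p = 1.86e-09). Of the intracellular lipases 4 of 7 were higher and 1 lower, and of the starch and glycogen genes 3 of 8 were higher and 2 lower. The epithelial list went from 1935 to 2093 CPM in wt to 2711 to 3082 in control, the endocrine list from 2058 to 2304 to 5264 to 6112, the duct list from 1095 to 1225 to 1778 to 2075 and the stomach and intestine list from 1.94 to 2.92 to 13.9 to 17.3. Of the 6 endocrine genes 3 were higher and 0 lower. Ins2 rose by 3.55 ± 0.27 and Iapp by 3.23 ± 0.16 (adjusted p = 9.04e-09 and 3.23e-11). Gcg stood at −0.32 ± 0.18 and Chgb at −0.11 ± 0.09 (adjusted p = 0.135 and 0.301). The blood cell list went from 674 to 849 CPM to 51.2 to 70.4. By gene, 2 of its 6 were higher and 4 lower, with Tyrobp at 1.50 ± 0.12 and Hbb-y at −4.97 ± 0.42 (adjusted p = 1.22e-08 and 3.61e-08). The part of the endocrine, duct, stomach and blood lists in these results was not tested. With epithelial reads as library size the 6 genes remained higher by 0.50 to 3.44 on the log2 scale, all called, while the median of all genes moved to −0.55.

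**Figure D3:**
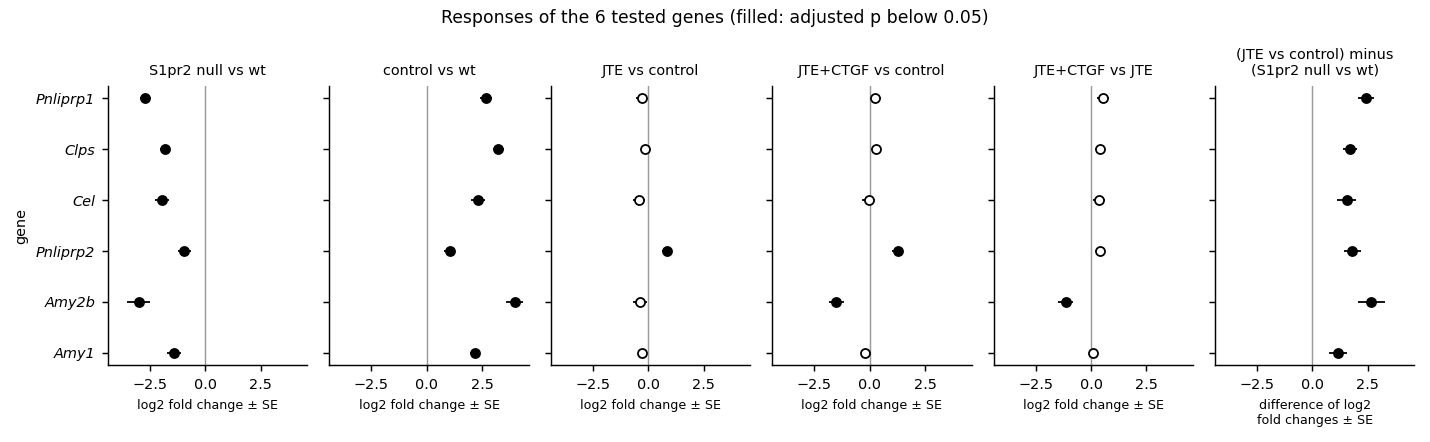
Log2 fold changes with SE of the 6 tested genes in 5 comparisons, and in the last panel the difference between the JTE response and the S1pr2 null response. Filled points passed an adjusted p below 0.05. All 6 points lie below 0 in the first panel and above 0 in the second and the last.

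The third comparison asked what blocking S1pr2 with JTE013 did to these transcripts in explants. Of the 6 tested genes 1, Pnliprp2, was higher and 0 were lower, where 25.9% of all genes were higher and 26.2% lower. Pnliprp2 had 479, 419 and 258 normalised reads in JTE, against 257, 236 and 144 in control. JTE 3, the library that stood apart, was at the level of control 1, and the groups did not overlap, as for 28.4% of all genes upwards and 28.3% downwards. The log2 fold change was 0.85 ± 0.23 (SE; adjusted p = 0.00463), and without JTE 3 it was 1.08 ± 0.20 (adjusted p = 0.00021). Per 1000 Pnliprp1 reads, Pnliprp2 went from 0.942 ± 0.0646 in control to 2.21 ± 0.435 in JTE (SD, n = 3), without overlap. Relative to the reads of other enzymes it stood at 0.65 ± 0.27 and missed the threshold (adjusted p = 0.0919).

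The other 5 genes were not called and overlapped between JTE and control. Pnliprp1 had 199258, 245194 and 102783 normalised reads in JTE, with a log2 fold change of −0.29 ± 0.25 (adjusted p = 0.336). The libraries JTE 1 and JTE 2 lay within the control range and JTE 3 below it. The log2 fold changes of the others were −0.13 ± 0.21 for Clps, −0.41 ± 0.28 for Cel, −0.36 ± 0.32 for Amy2b and −0.27 ± 0.20 for Amy1 (adjusted p = 0.637, 0.237, 0.363 and 0.265). Without JTE 3 these 5 values ranged from −0.08 to 0.13, and the counts of called genes were again 1 higher and 0 lower. Without JTE 2 Cel was called, at −0.74 (adjusted p = 0.0453). With epithelial reads as library size all 5 values turned positive, from 0.03 for Cel to 0.33 for Clps, and none was called. The median of all genes moved to 0.49 on that scale, above all 5 values, with 10218 genes called higher and 1394 lower.

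Of the 15 other enzymes 8 were lower with JTE and 0 higher (median −1.11, against 0.00 over all genes), while some of the most abundant did not pass the test. Ctrb1 stood at 0.29 ± 0.20, Cpa1 at 0.44 ± 0.19 and the trypsinogen gene Prss2 at 0.27 ± 0.23 (adjusted p = 0.25, 0.0601 and 0.347). Of the zymogen granule genes 5 of 12 were lower and 1 higher, with Spink1 at −1.20 ± 0.18 (adjusted p = 2.85e-05). Of the acinar transcription factors 2 of 10 were lower and 1 higher (median 0.04). Of the other lipases 5 of 6 were lower and 0 higher, among them Lpl (−1.38 ± 0.14) and Pla1a, a phospholipase gene of the family (−2.25 ± 0.12; adjusted p = 4.09e-07 and 3.93e-10). Of 7 intracellular lipase genes 2 were higher and 1 lower. Of 8 starch and glycogen genes 2 were higher and 2 lower, and Gaa, the lysosomal acid glucosidase gene, rose by 0.93 ± 0.05 (adjusted p = 5.41e-10). Beside these, the endocrine list went from 5264 to 6112 CPM in control to 1321 to 1663 in JTE, the duct list from 1778 to 2075 to 807 to 949, the liver list from 413 to 470 to 151 to 217 and the epithelial list from 2711 to 3082 to 1792 to 2234. In the liver list 5 of 6 genes were lower and 0 higher. The part of the endocrine, duct and liver lists in these results was not tested.

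With CTGF added to JTE, Pnliprp2 and Amy2b differed from control in opposite directions, so 1 of the 6 genes was higher and 1 lower, where 28.1% of all genes were higher and 33.0% lower. These 2 genes did not overlap with control, as for 30.4% of all genes upwards and 34.4% downwards. Pnliprp2 had 457, 515 and 552 normalised reads in JTE + CTGF, all above every control library. Its log2 fold change was 1.26 ± 0.23 against control (adjusted p = 0.000134). Amy2b had 1276, 2884 and 3350 normalised reads, all below every control library, of which the lowest had 5074. It fell by 1.50 ± 0.33 on the log2 scale (2.83-fold; adjusted p = 0.000914). JTE + CTGF 1 was the lowest by far, and without it Amy2b stood at −1.18 (adjusted p = 0.00487).

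The remaining 4 genes overlapped with control. The JTE + CTGF libraries had 240173, 269194 and 286185 normalised reads of Pnliprp1 and 70512, 84349 and 92774 of Clps. Their log2 fold changes were 0.25 ± 0.25 and 0.29 ± 0.21 (adjusted p = 0.399 and 0.252), and those of Cel and Amy1 were −0.05 ± 0.28 and −0.19 ± 0.20 (adjusted p = 0.891 and 0.437). With epithelial reads as library size Pnliprp1 (0.71) and Clps (0.75) were called higher (adjusted p = 0.00258 and 0.000306) and Cel and Amy1 turned positive, at 0.41 and 0.27. On that scale 9148 of 16245 genes were called higher and 2001 lower, and the median of all genes moved to 0.42. Of the other enzymes 4 of 15 were higher and 6 lower. Ctrb1 rose by 0.76 ± 0.20, Cpa1 by 0.63 ± 0.19 and Prss2 by 0.78 ± 0.23 (adjusted p = 0.00407, 0.00828 and 0.00768). Of the zymogen granule genes 1 of 12 was higher and 5 were lower, of the acinar transcription factors 3 of 10 were higher and 2 lower, and of the other lipases 5 of 6 were lower and 0 higher. The endocrine list stood at 1385 to 2030 CPM in JTE + CTGF against 5264 to 6112 in control, the duct list at 936 to 1191 against 1778 to 2075, the epithelial list at 1978 to 2172 against 2711 to 3082 and the liver list at 173 to 287 against 413 to 470. In the liver list 3 of 6 genes were lower and 0 higher. The part of the endocrine, duct and liver lists in these results was not tested.

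Set directly against JTE alone, JTE + CTGF changed 1 of the 6 genes, Amy2b, which was lower, where 16.8% of all genes were lower and 13.6% higher. None of the 6 genes was free of overlap, against 19.6% of all genes upwards and 20.6% downwards. Amy2b fell by 1.14 ± 0.33 on the log2 scale, from 7087, 6267 and 3146 normalised reads in JTE (adjusted p = 0.0157). The groups overlapped, since JTE + CTGF 3 lay above JTE 3. The call was lost without JTE 1 (log2 fold change −0.91) or JTE + CTGF 1 (−0.82), with adjusted p up to 0.0704, and held without JTE 3 (−1.38, adjusted p = 0.00223). The other 5 genes stood at 0.09 to 0.54 and were not called. Without JTE 2, Pnliprp1 (0.81, adjusted p = 0.0276) and Clps (0.68, adjusted p = 0.0252) were called higher. Pnliprp2 stood at 0.40 ± 0.21 (adjusted p = 0.167). Of the other enzymes 4 of 15 were higher and 0 lower (median 0.47), and of the zymogen granule genes 3 of 12 were higher and 1 lower. The blood cell list stood at 83 to 119 CPM in JTE + CTGF and at 29 to 57.5 in JTE, and its part in these results was not tested.

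The ratio of the amylases carried this pattern within each library. There were 39.1 ± 3.09 Amy2b reads per Amy1 read in control and 36.2 ± 4.34 in JTE, which overlapped, against 15.4 ± 4.95 in JTE + CTGF (SD, n = 3), which did not. The value was 11.2 ± 2.87 in wt and 3.94 ± 0.809 in the libraries labelled S1pr2 null (SD, n = 3), without overlap.

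The 5 Amy2a genes, near-identical copies beside Amy2b, gave a further view of pancreatic amylase. All the 50-base words of Amy2a2, Amy2a3 and Amy2a4, 94.9% of those of Amy2a1 and 53.5% of those of Amy2a5 occur at another gene, so the few reads placed there are an uncertain part of the total and cannot be assigned firmly to 1 copy. In wt and null, all libraries had at most 5 reads for each copy but Amy2a2, which had 4 to 16 and 0 to 3.

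With JTE, 4 of the 5 copies were lower. Amy2a2, the copy with the most reads, had 151, 178 and 90 reads in control and 50, 71 and 23 in JTE. No JTE library reached the control range, and the log2 fold change was −1.57 ± 0.34 (SE; adjusted p = 0.000902). Those of Amy2a3, Amy2a4 and Amy2a5 were −1.92, −2.08 and −1.87 (adjusted p = 0.000604, 0.00217 and 0.00166). Amy2a1 had 31, 49 and 31 reads in control and 42, 29 and 17 in JTE, which overlapped, with a log2 fold change of −0.37 ± 0.35 (adjusted p = 0.398), close to the −0.36 of Amy2b. Without JTE 3 the 4 copies remained lower, by 1.20 to 1.65 on the log2 scale.

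Against JTE alone, CTGF went with a lower value of the other copy. Amy2a1 had 5, 7 and 5 reads in JTE + CTGF, below all JTE libraries, and fell by 2.15 ± 0.48 on the log2 scale (adjusted p = 0.00268). The log2 fold changes of Amy2a2 to Amy2a5 were 0.12 to 0.55 and none was called. Whether Amy2b or Amy2a1 differed from the other copies in these responses was not tested. Summed over the 5 copies, the log2 fold change was −1.44 ± 0.33 for JTE against control (adjusted p = 0.00158) and −0.10 ± 0.37 for JTE + CTGF against JTE (adjusted p = 0.865). Summed over all 7 amylase genes, of which Amy2b had most reads, the values were −0.39 ± 0.32 and −1.06 ± 0.32 (adjusted p = 0.316 and 0.0195).

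**Figure D4:**
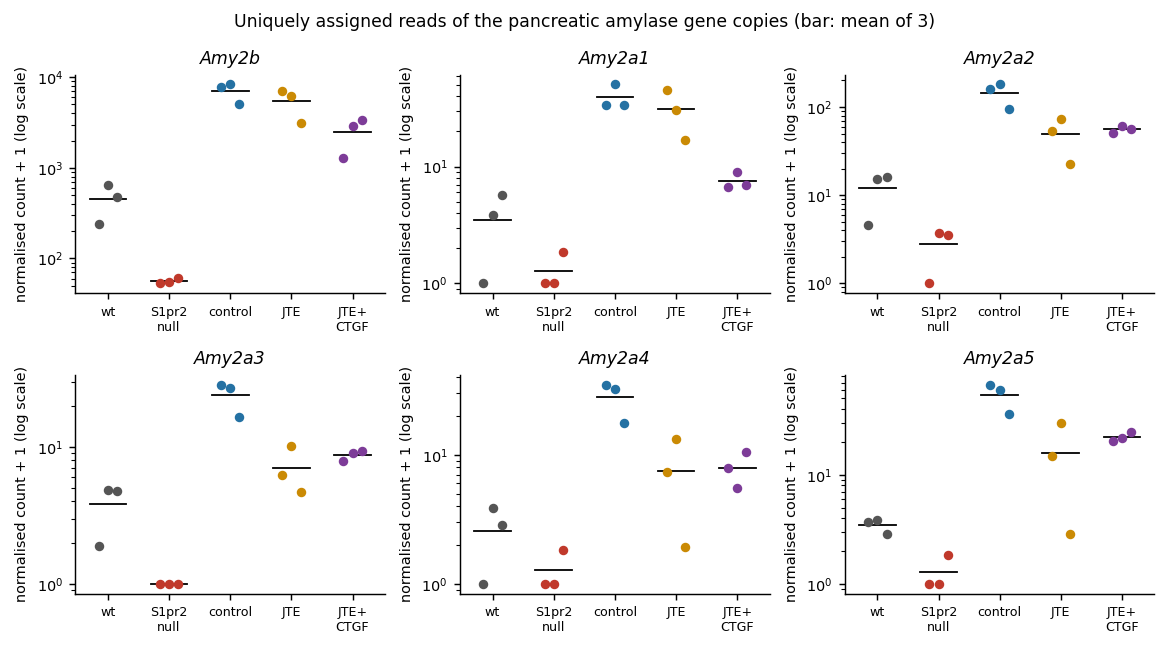
Normalised counts plus 1 (log axis, each panel with its own range) of Amy2b and the 5 Amy2a copies in each library, by group, with bars at the means of 3. In Amy2b and Amy2a1 the JTE libraries overlap control and the JTE + CTGF libraries lie below it, while in Amy2a2, Amy2a3, Amy2a4 and Amy2a5 both JTE groups lie below control.

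The effect of JTE in explants was then set against that of the S1pr2 null label in fresh tissue, 2 comparisons that share no library. The difference of the log2 fold changes was positive and called for all 6 genes, where 21.5% of all genes were called in that direction, with a median of 1.75 against 0.00 over all genes. It was 2.66 ± 0.61 (SE) for Amy2b and 2.41 ± 0.35 for Pnliprp1 (adjusted p = 0.00225 and 4.31e-05). For Pnliprp2, which fell in null and rose with JTE, it was 1.80 ± 0.39 (adjusted p = 0.00124). For Clps, Cel and Amy1 it was 1.69 ± 0.30, 1.54 ± 0.41 and 1.15 ± 0.39 (adjusted p = 0.000285, 0.00601 and 0.0245). Of the 15 other enzymes 5 were called in that direction and 0 in the other (median 0.88). The value of Amy1 missed the threshold without wt 2 (0.96), S1pr2 null 1 (0.99), JTE 1 (1.02) or JTE 2 (1.02), with adjusted p up to 0.0766. Genotype against inhibitor, fresh tissue against culture and starting level cannot be told apart in this contrast. Relative to the reads of other enzymes, where all genes shift by a median of −1.95, none of the 6 differences passed the test. They ranged from −0.91 for Amy1 to 0.54 for Amy2b. These summed reads weigh the most abundant enzymes most, and Ctrb1 itself had a difference of 2.89 ± 0.29 (adjusted p = 1.14e-06). The scale therefore does not measure the 6 genes against the typical other enzyme.

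**Figure D5:**
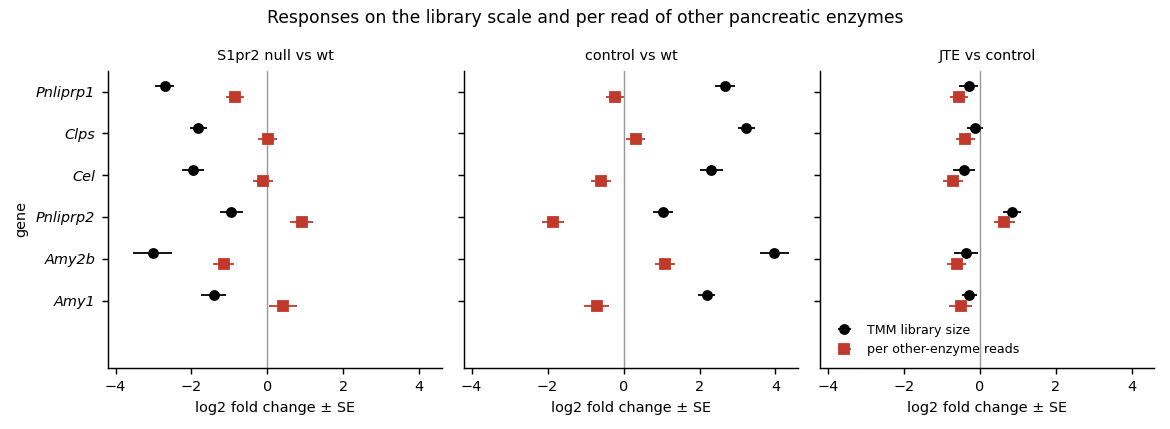
Log2 fold changes with SE of the 6 tested genes in 3 comparisons, with the TMM library size (circles) and with the reads of 17 other pancreatic enzymes as library size (squares). Relative to the other enzymes, Pnliprp2 (0.90), Amy1 (0.40) and Clps (0.01) change side in the first panel and Pnliprp2 (−1.87), Amy1 (−0.71), Cel (−0.60) and Pnliprp1 (−0.23) in the second, while none does in the third.

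Over the 15 libraries, the log2 CPM values of Pnliprp1 and Cel correlated most among the 6 genes (Pearson's r = 0.994) and those of Pnliprp2 and Amy2b least (r = 0.842). These are descriptions over libraries that fall into 5 groups of very different level. By the same measure, genes outside the 7 that were most alike to Pnliprp1 included Cela3b (0.996) and Edem1 (0.995), and those for Cel included Cela3b (0.996) and Tmem184a (0.994). For Clps the 3 most alike were Yipf2, Serpina6 and Ctrb1 (0.996 each). For Pnliprp2 they were Ptf1a (0.992), Aqp8 (0.992) and Llgl2 (0.990). For Amy1 they were Tmem184a (0.990), Tnk1 and Serpina6 (0.989 each), and for Amy2b Gjd2 (0.987), Shtn1 (0.984) and Spryd3 (0.981).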

How the data were processed

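Poly(A) RNA of 15 libraries was sequenced, and up to 3 pancreata were pooled per library. The authors aligned single-end reads to mm10 with GSNAP and deposited raw counts of uniquely aligned reads per gene, made with featureCounts 1.4.6 and Ensembl annotation 69. These counts were not normalised by the authors, and whether counting used the strand is not given in the sources used here. All count columns were mapped to samples by their titles. Symbols came from GENCODE M21 (24750 of 25292 IDs).

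Tests used edgeR 4.0.16 (R 4.3.3; glmQLFit and glmQLFTest), with TMM factors, genes kept by filterByExpr and 1 coefficient per group over all 15 libraries. Adjusted p-values are Benjamini-Hochberg values over 16245 genes, and genes were called at an adjusted p below 0.05. The SE is the log2 fold change divided by the square root of the F statistic. The fit recovered 200 of 200 genes changed in counts simulated for S1pr2 null against wt, with 7 false calls among 15894 genes. The changed genes were well counted, with a spread set from the common coefficient of variation and no outlying library. Normalised counts of Amy2b varied by 44.3% in wt (SD over mean). The recovery therefore does not speak for genes with low or widely spread counts. Alternatives were RLE factors, no factors, epithelial or other-enzyme reads as library size, no filter, DESeq2 1.42.0, only the libraries compared, a replicate block and leaving out each library. A count carries counting error on top of the spread between libraries, which matters for low counts such as those of Pnlip and the Amy2a copies. Words of 50 bases shared between transcripts were counted to mark copies.

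The 7 genes and the gene lists were chosen with earlier results of these data known, and no list was tested as a set. Named were the 7 genes, the Amy2a copies, S1pr2, at most the 4 genes of highest mean CPM per list and the 3 most correlated genes, of which 1 gene is not reported here. Lists of markers of other cell types were summed per library. Clpsl2, the colipase-like gene listed, was not in the table used here. Proteins were not analysed here. Figures were made with matplotlib 3.10.9.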

Additional observations from a re-analysis of the deposited data

Results flagged for a closer look

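For the 6 tested genes the effect of JTE in explants differed from that of the S1pr2 null label in fresh tissue by the test of the difference itself. The differences of the log2 fold changes were 2.66 for Amy2b, 2.41 for Pnliprp1, 1.80 for Pnliprp2, 1.69 for Clps, 1.54 for Cel and 1.15 for Amy1. Each is the signed log2 fold change for JTE less that for S1pr2 null, and each of the 6 genes fell in null while Pnliprp2 alone was called with JTE, as higher. No explanation was tested.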

How the results depend on the processing

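With RLE factors, total counts, DESeq2, the libraries of each comparison alone or a replicate block, each of the 36 fold changes (6 genes in 6 comparisons) kept its direction and its side of the threshold. With the replicate block Pnliprp1 stood at −2.67 for S1pr2 null against wt and Amy2b at −1.15 for JTE + CTGF against JTE. The replicate numbers share no stated origin, and the deviations of same-numbered libraries correlated at −0.097 to 0.248. In JTE against control replicates 2 and 3 did so at 0.148 and 0.248 and replicate 1 at −0.0473, so the numbers were not taken to pair the libraries. Without the filter, 4 values passed the threshold: Clps in JTE + CTGF against control (0.32) and, against JTE, Pnliprp2 (0.43), Clps (0.44) and Pnliprp1 (0.57). With epithelial reads as library size Pnliprp2 missed it in null (−0.49), Pnliprp1 (0.71) and Clps (0.75) passed it in JTE + CTGF against control, and values below 0 turned positive in JTE for Cel (0.03), Pnliprp1 (0.16), Clps (0.33), Amy1 (0.20) and Amy2b (0.10) and in JTE + CTGF against control for Cel (0.41) and Amy1 (0.27). On that scale mean counts moved by more than 1 SD in control, to 129 for Amy1, 152 for Pnliprp2, 160343 for Pnliprp1, 18250 for Cel, 48617 for Clps and 5081 for Amy2b, and in null, to 1875 for Cel, 20.6 for Amy1, 2898 for Clps, 76.8 for Pnliprp2, 7650 for Pnliprp1, 78.9 for Amy2b and 8.13 for Pnlip, and counts of all genes called became 10744 higher and 446 lower in null, 10218 and 1394 in JTE, 9148 and 2001 in JTE + CTGF against control, 730 and 1795 against JTE, 1589 and 10892 in control against wt, and 2231 lower in the difference of responses. With total counts, the null means of Clps (2185) and Pnliprp1 (5761) moved by more than 1 SD, and control against wt gave 3347 genes higher and 6809 lower, against 4631 and 4758. With other-enzyme reads as library size (chosen after seeing the data), values on the other side of 0 were, in null, Clps 0.01, Amy1 0.40 and Pnliprp2 0.90, in control against wt Pnliprp1 −0.23, Cel −0.60, Amy1 −0.71 and Pnliprp2 −1.87, in JTE + CTGF against control Pnliprp1 −0.40 and Clps −0.37, against JTE Pnliprp2 −0.03 and Amy1 −0.35, and in the difference of responses Pnliprp2 −0.26, Clps −0.39, Cel −0.59 and Amy1 −0.91. The threshold was then missed by Cel in null (−0.12), Clps in control against wt (0.32), Pnliprp2 in JTE (0.65) and Pnliprp1 (0.30) and Amy2b (0.54) in the difference, and passed by Cel in JTE (−0.71) and JTE + CTGF (−0.70) and Amy1 in JTE + CTGF (−0.85). By construction these scales measure each gene against the named reads.

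Leaving out 1 library changed a call or a direction in 19 of 540 fits. The values ranged from −1.15 to −0.64 for Pnliprp2 in null, −0.74 to −0.06 for Cel and −0.39 to 0.13 for Clps in JTE, −0.23 to 0.05 for Cel in JTE + CTGF against control, −0.11 to 0.22 for Amy1, 0.29 to 0.81 for Pnliprp1, 0.20 to 0.68 for Clps and −1.40 to −0.82 for Amy2b in JTE + CTGF against JTE, and 0.96 to 1.38 for Amy1 in the difference. Genes called higher in JTE + CTGF against JTE ranged from 1340 (without JTE + CTGF 3) to 2555. Depth limits Pnlip and the Amy2a copies, the latter also through shared sequence. The causes of these changes were not tested.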
